A study of Mus musculus with 24 samples.

Results

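The genes described here are 53 components of the TGF-beta, activin and BMP signalling pathways in mouse lung. They were chosen by symbol and comprise ligands, latency proteins, receptors, Smads, antagonists and feedback targets. All 53 were represented among the 20728 named genes on the array, each by the array feature with the highest mean. Bambi was the only member with a mean level under 6.11, the 25th percentile of gene means, and no member was removed by a filter on level.

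Whole lungs of C57BL/6 mice aged 9 to 12 weeks were profiled on 24 one-colour Agilent arrays. The mice had received either PBS or bleomycin, a DNA-damaging drug used to injure the lung and produce fibrosis. All of them were also given a gapmer, a short antisense oligonucleotide with a central DNA stretch that directs cleavage of a matching RNA. The labels name a control (GP Ctrl) and 2 gapmers against the long noncoding RNA Dnm3os (GP DNM3OS-1 and GP DNM3OS-3), here called gapmer 1 and gapmer 3. Each PBS group held 3 arrays and each bleomycin group 5. No group went without a gapmer, so a gapmer effect was always measured against the control oligonucleotide. No dose, time or route is stated here because the labels used give none. The labels number the samples within a group and name no animal, and the p-values therefore reflect only how far these samples spread, which may in part be technical. The number of arrays limits the precision.

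TGF-beta is secreted in a latent form, held by its propeptide and by latent TGF-beta binding proteins in the matrix, and is released to act through the kinase receptors Tgfbr2 and Tgfbr1. These receptors phosphorylate Smad2 and Smad3, as do activin receptors. BMPs act through Bmpr2, Bmpr1a, Bmpr1b, Acvr1 and, in endothelium, Acvrl1, and phosphorylate Smad1, Smad5 and Smad9. In the lung, TGF-beta drives fibroblast activation and matrix synthesis, and BMP signalling is required for a stable pulmonary endothelium.

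Dnm3os, the target of both gapmers, is transcribed opposite to Dnm3 and is the host transcript of microRNAs of the miR-199 and miR-214 families. The mature sequences of Mir199a-2 and Mir214 are shown because they lie in the transcript that the gapmers were made to cleave. They were copied from the RefSeq table for GRCm38.p6, on the + strand of chromosome 1, with the seed (bases 2 to 8) in capitals. Each of the 4 has a seed of its own. Their levels were not analysed here.
mmu-miR-199a-5p (chr1:162217844-162217866): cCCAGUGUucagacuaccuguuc
mmu-miR-199a-3p (chr1:162217883-162217904): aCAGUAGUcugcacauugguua
mmu-miR-214-5p (chr1:162223397-162223418): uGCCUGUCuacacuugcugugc
mmu-miR-214-3p (chr1:162223438-162223459): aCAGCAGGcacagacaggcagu

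Across the series, arrays of the same group correlated with r between 0.982 and 0.998 over genes, which are not independent replicates, and the RNA integrity number lay between 8.5 and 10. The lung markers Sftpc, Ager, Scgb1a1, Cldn5 and Pecam1 lay at 10.08 or higher (log2 intensity) on every array. Dnm3os was dim. Its brightest feature ranged from 6.64 to 7.05 in bleomycin controls, from 5.99 to 6.48 with gapmer 1 and from 6.26 to 6.78 with gapmer 3. In PBS mice it ranged from 6.27 to 6.39, 5.76 to 6.06 and 5.95 to 6.22 in the same order.

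On 4 arrays the centre of the array was dim, which bears most on 7 members. The 62976 feature numbers were read line by line over 384 lines of 164 columns, the shortest line length at which deviations of features one line apart varied together. This layout was inferred from the values. The local shift of an array was taken as the median deviation of bright features in a square of 17 by 17 positions. It fell to between -1.41 and -0.95 on bleomycin control replicate 5, bleomycin gapmer 1 replicate 3, PBS control replicate 2 and PBS gapmer 3 replicate 2, with the minimum between lines 192 and 203 and columns 82 and 85. On the other 20 arrays the minimum lay between -0.59 and -0.10. A weaker minimum lay in the same place on PBS control replicate 3 (-0.59 at line 190, column 83) and on bleomycin gapmer 1 replicate 2 (-0.48 at line 180, column 85). PBS control replicate 3 is also the array without which several bleomycin calls below were lost. The features of these members (Tgfb1, Tgfb2, Tgfbr2, Fstl3 and Smad4) lay at columns 17 to 34. There the local shift varied by 0.21 to 0.25 between arrays. The part of the dim centre in the lost calls was not tested. Genes with many features showed the same. Tgfb1 had 10 features, and the feature closest to the centre was lower on those 4 arrays than on the other arrays of their groups by a mean difference of -1.84, whereas the other 9 differed by between -0.13 and 0.28. The chosen features of Id2, Acvrl1, Bmp7, Tgfb3, Skil, Smad2 and Smurf1 lay where the local shift varied by more than 0.4 between arrays. That limit was set by choice. Among the other members the shift varied by up to 0.38, and by 0.35 for Id1, whose feature lies at line 170 and column 61. For the 7 members the value after removal of the local shift, an alternative chosen after seeing the data, is given beside the bleomycin change as deposited. In the other comparisons it is given where the change of one of these 7 members is given.

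**Figure D1:**
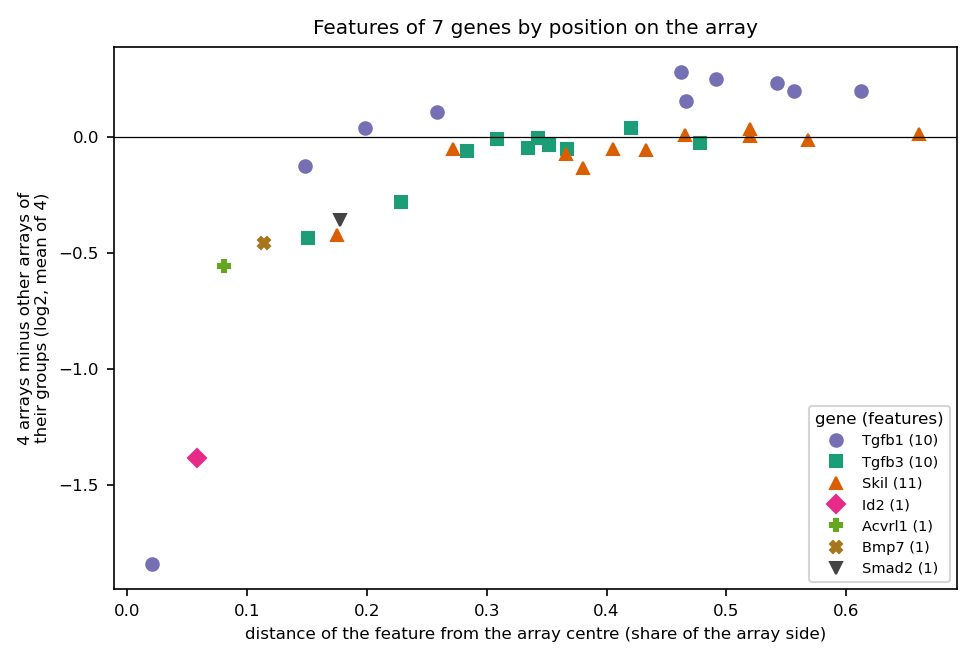
Difference between the 4 arrays with a dim centre and the other arrays of their groups (y axis, log2, mean over the 4 arrays) against the distance of a feature from the array centre (x axis, as a share of the array side), for every feature of 7 genes. The feature of Tgfb1 at the centre lies at -1.84 and that of Id2 at -1.38, while features beyond 0.3 of the side lie between -0.13 and 0.28.

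What injury did to the pathway was read from the mice given the control gapmer, bleomycin against PBS (5 against 3 arrays). Activin A and its binding protein, the BMP antagonist Grem1 and the feedback gene Pmepa1 rose, and the BMP ligand Bmp6, the endothelial BMP receptors and the inhibitory Smads fell. At a limma adjusted p under 0.05, 17 members were higher and 21 lower, and 15 were not called. Over all genes 33.8% were called in this contrast, 14.5% higher and 19.3% lower. The median change of the members was -0.15 and that of all genes -0.02 (log2). All arrays of the bleomycin group lay above all PBS arrays for 15 members and below them for 21, where 33.3% of all genes had groups that did not overlap, 15.1% above and 18.2% below. In whole lung, fewer cells of a type and less RNA per cell cannot be told apart. Cell markers moved in the same contrast: 11 of 12 endothelial markers fell, with their mean level at 11.81 to 12.08 in PBS and 11.22 to 11.44 in bleomycin controls. Of the myofibroblast and smooth muscle markers 4 of 9 rose (11.16 to 11.40 against 11.60 to 11.85), and of the resident fibroblast markers 6 of 12 fell and 1 rose. Markers of other cell types moved too. All 8 monocyte-derived macrophage markers rose (mean level 8.34 to 8.51 against 10.68 to 10.96), as did 6 of 8 markers of basal and squamous epithelium (6.82 to 7.72 against 9.36 to 10.32) and 6 of 7 of T cells (8.69 to 9.04 against 9.44 to 10.29). Thymus markers lay at 9.15 on 1 bleomycin control array, where the median of that group was 7.06. Of the alveolar type 1 markers 7 of 8 fell and 1 rose (13.59 to 13.79 against 12.90 to 13.32), all 5 adipose markers fell (12.27 to 13.01 against 10.61 to 11.22), and 2 of 8 skeletal muscle markers fell (11.18 to 12.41 against 9.46 to 9.62). Mean levels were also lower for markers of NK cells (9.25 to 9.48 against 8.26 to 8.88), red blood cells (13.76 to 14.01 against 12.73 to 13.01) and cardiac muscle (12.49 to 12.73 against 11.66 to 12.12). Those of B cells were higher (10.95 to 11.22 against 11.35 to 11.69). The part of these cells in the changes below was not tested.

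**Figure D2:**
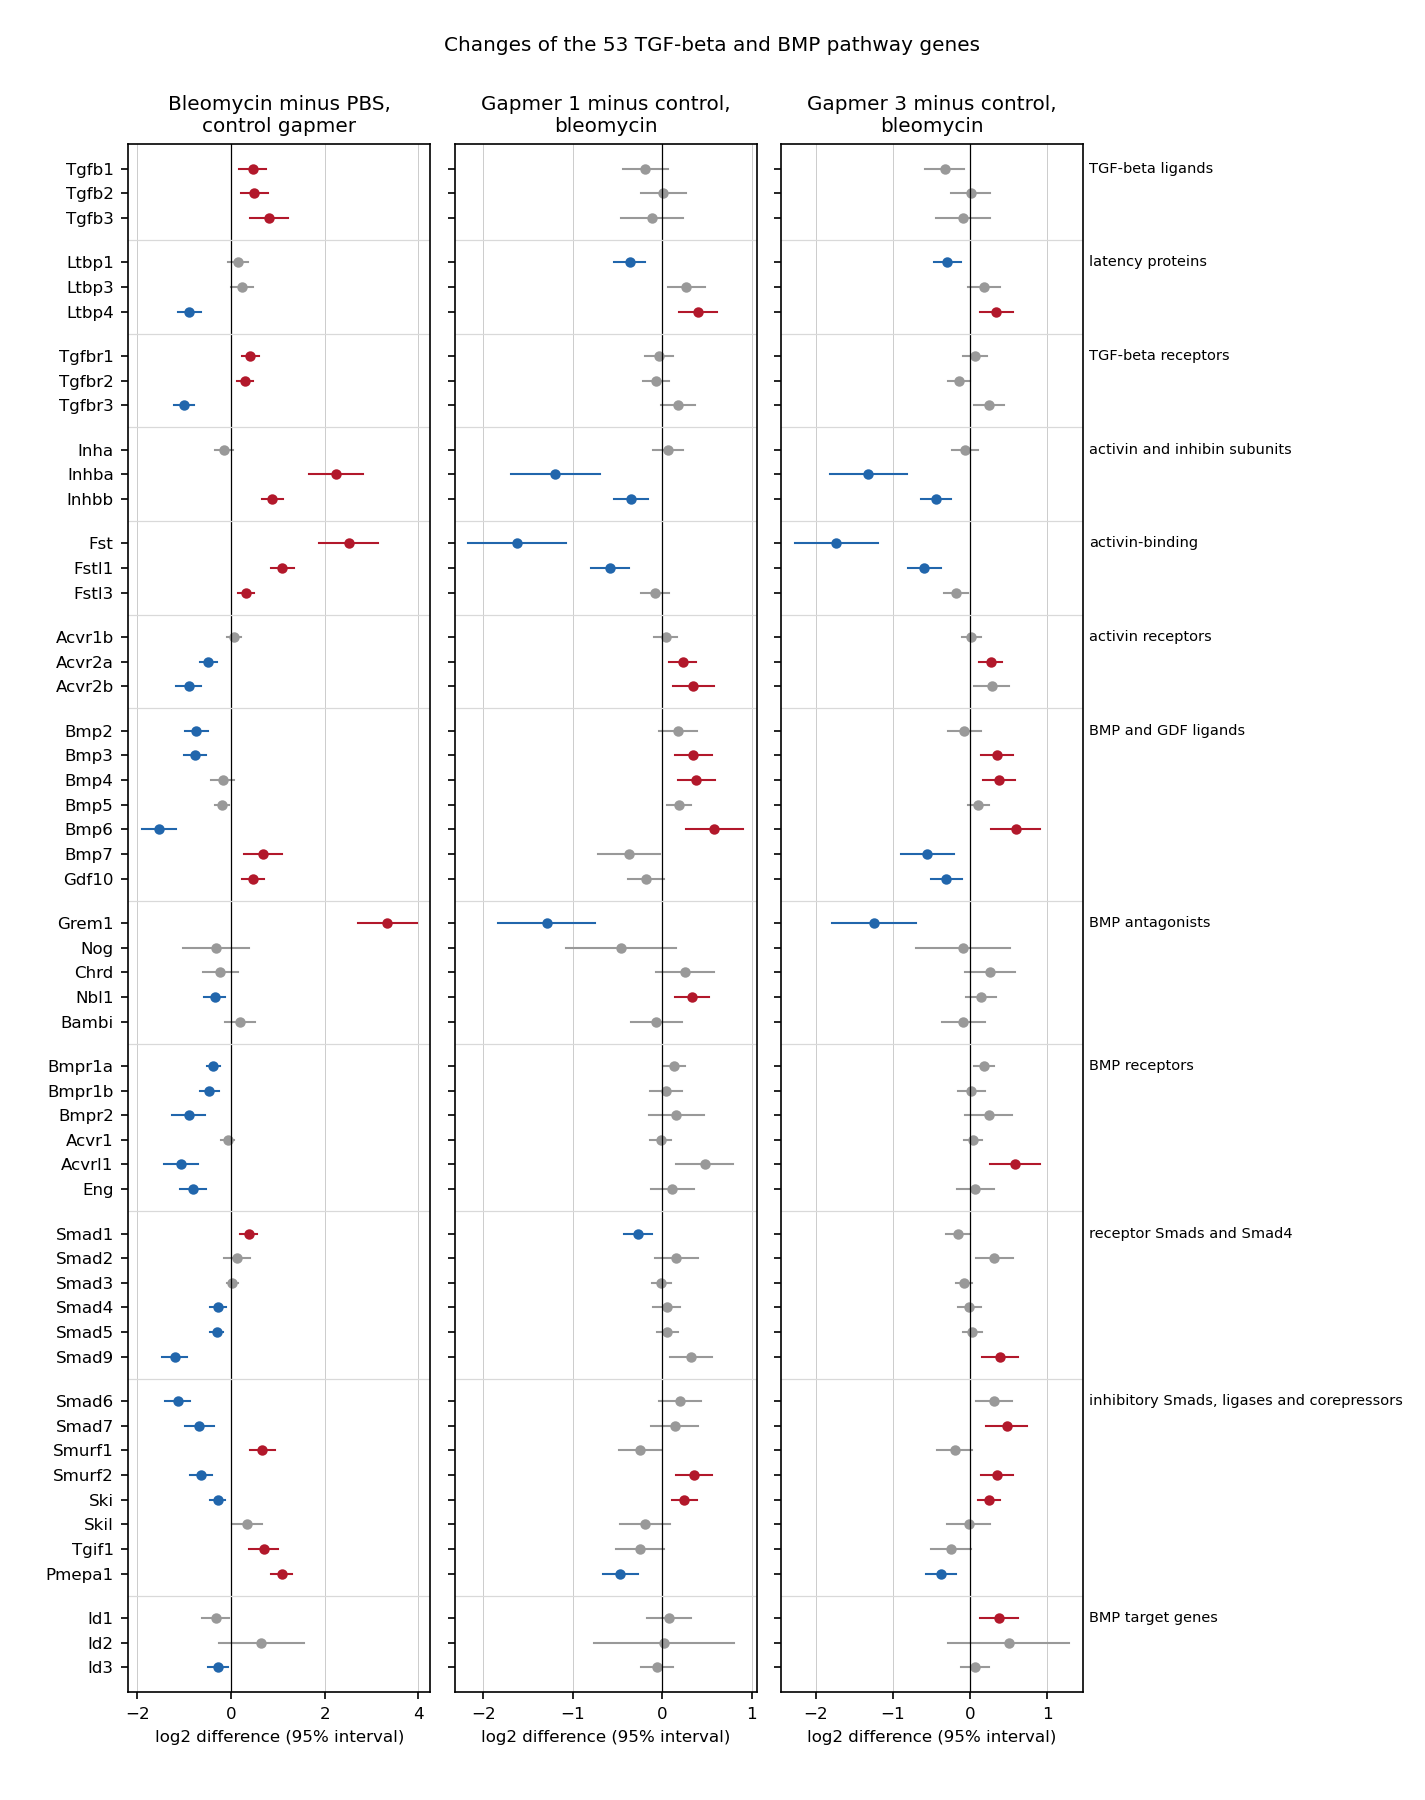
Log2 difference (x axis) of each of the 53 genes (y axis, by role) for bleomycin minus PBS under the control gapmer, and for gapmer 1 and gapmer 3 minus control in bleomycin mice. Points are limma estimates, lines are 95% intervals, red and blue mark genes called higher and lower and grey marks genes not called. Grem1, Fst and Inhba have the largest rises in the left panel (3.33, 2.51 and 2.24) and the largest falls in the other panels.

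All 3 TGF-beta ligands rose. Tgfb1, the isoform most studied in fibrosis, measured 10.15, 10.37 and 9.82 in PBS controls and 10.66, 10.55, 10.31, 10.80 and 10.58 in bleomycin controls, a change of 0.47 (SE 0.14, limma adjusted p = 0.0126). The lowest bleomycin array lay below the highest PBS array, and the change was 0.32 (limma adjusted p = 0.128) without PBS control replicate 3. Over its 10 features the change ran from 0.40 to 1.20 with a median of 0.46, and the highest value came from the feature at the array centre. Tgfb2 measured 11.69, 11.77 and 11.33 in PBS and 12.11, 12.05, 12.07, 12.06 and 12.19 in bleomycin controls, without overlap. Its change was 0.50 (SE 0.14, limma adjusted p = 0.00838), or 0.37 (limma adjusted p = 0.0863) without PBS control replicate 3, and its other feature changed by 0.14. Tgfb3 measured 11.76, 11.42 and 11.46 in PBS and 12.59, 12.53, 12.26, 12.48 and 11.91 in bleomycin controls. The array at 11.91 was bleomycin control replicate 5, which had a dim centre. The change of Tgfb3 was 0.81 (SE 0.19, limma adjusted p = 0.00237) as deposited, 0.68 with the local shift removed, and 0.64 in the median of its 10 features.

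Among the latency proteins, Ltbp4, a matrix protein that also supports elastic fibre assembly, fell. It measured 15.22, 15.23 and 15.05 in PBS and 14.32, 14.07, 14.09, 14.32 and 14.55 in bleomycin controls, a change of -0.89 (SE 0.12, limma adjusted p = 4.78e-06). Its other features changed by -0.61 and -0.28. Ltbp1 measured 10.35, 10.73 and 10.63 in PBS and between 10.52 and 10.92 in bleomycin controls and was not called (0.15, limma adjusted p = 0.273). Ltbp3 was not called either (0.24, limma adjusted p = 0.128), and its features disagreed in size, the other one having changed by 0.91. With the local shift removed Ltbp1 and Ltbp3 passed at 0.28 and 0.30.

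The TGF-beta receptors split. The signalling receptors rose slightly: Tgfbr1 measured 10.32, 10.44 and 10.60 in PBS and 10.86, 10.90, 10.93, 10.74 and 10.90 in bleomycin controls (0.41, SE 0.09, limma adjusted p = 0.0008). Tgfbr2 measured 14.29, 14.22 and 14.01 against 14.47, 14.50, 14.36, 14.48 and 14.57 (0.30, SE 0.08, limma adjusted p = 0.00559), or 0.22 (limma adjusted p = 0.0651) without PBS control replicate 3. Neither gene had overlapping groups, and their other, dimmer features changed by 0.33 (Tgfbr1) and 0.43 (Tgfbr2). The coreceptor Tgfbr3, betaglycan, which presents ligand to Tgfbr2 and also binds inhibin, fell from 11.78, 11.78 and 11.90 to 10.68, 10.78, 10.83, 10.79 and 11.00. Its change was -1.01 (SE 0.11, limma adjusted p = 3.38e-07).

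The activin branch held the largest rises apart from Grem1. Inhba encodes the beta A subunit, whose dimer is activin A, a ligand that signals through Smad2 and Smad3. It measured 7.63, 7.75 and 7.94 in PBS and 10.14, 10.28, 9.84, 10.19 and 9.62 in bleomycin controls, a 4.73-fold rise (log2 2.24, SE 0.28, limma adjusted p = 2.09e-06). Inhbb, the beta B subunit, measured 10.53, 10.48 and 10.56 against 11.27, 11.47, 11.37, 11.54 and 11.38 (0.88, SE 0.11, limma adjusted p = 1.67e-06). Both subunits were separated from PBS on every array, and Inha, the inhibin alpha subunit, was not called (-0.15, limma adjusted p = 0.233). Fst encodes follistatin, which binds and neutralises activin. It measured 8.74, 8.72 and 8.41 in PBS and 11.25, 11.52, 11.07, 11.15 and 10.67 in bleomycin controls, a 5.70-fold rise (log2 2.51, SE 0.30, limma adjusted p = 1.57e-06). The follistatin-like secreted protein gene Fstl1 measured 13.19, 12.95 and 13.17 against 14.15, 14.37, 14.21, 14.26 and 14.02 (1.10, SE 0.12, limma adjusted p = 4.05e-07). Fstl3, another activin-binding protein, changed by 0.32 (SE 0.09, limma adjusted p = 0.00624), or 0.18 (limma adjusted p = 0.0995) without PBS control replicate 3. Ligand subunits and their binding proteins moved the same way in this contrast, while the type 2 receptors of activin fell. Acvr2b measured 12.49, 12.36 and 12.43 in PBS and 11.46, 11.30, 11.53, 11.44 and 11.86 in bleomycin controls (-0.90, SE 0.13, limma adjusted p = 9.06e-06), and Acvr2a changed by -0.48 (SE 0.09, limma adjusted p = 0.000123). The other feature of Acvr2a, a dimmer one, changed by -0.06. Acvr1b, the type 1 receptor, was not called (0.07, limma adjusted p = 0.514).

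Of the 7 BMP and GDF ligands 3 fell, 2 rose and 2 were not called. Bmp6 measured 11.72, 11.69 and 11.43 in PBS and 10.12, 9.77, 9.99, 10.01 and 10.50 in bleomycin controls, a 2.89-fold fall (log2 -1.53, SE 0.18, limma adjusted p = 9.61e-07). Bmp6 is a BMP ligand known from endothelium as a regulator of hepcidin. Bmp3 (-0.77, SE 0.11) and Bmp2 (-0.74, SE 0.12) fell without overlap of the groups. Bmp4, a ligand of lung branching and vascular development, measured 13.32, 13.06 and 13.14 in PBS and 12.92, 12.73, 12.96, 13.10 and 13.28 in bleomycin controls and was not called (-0.18, limma adjusted p = 0.259), nor was Bmp5 (-0.19, limma adjusted p = 0.0566). Gdf10 rose by 0.47 (SE 0.11, limma adjusted p = 0.00249). Bmp7 measured 7.90, 7.57 and 7.95 in PBS and 8.84, 8.66, 8.38, 8.65 and 7.92 in bleomycin controls, where the lowest array of each group had a dim centre. Its change was 0.68 (SE 0.19, limma adjusted p = 0.00878) as deposited and 0.53 (SE 0.10, limma adjusted p = 0.000196) with the local shift removed. Without PBS control replicate 2 it was 0.56 (limma adjusted p = 0.0584).

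Grem1, the extracellular BMP antagonist gremlin, had the largest change of all members. It measured 5.93, 6.44 and 6.02 in PBS and 9.59, 9.77, 9.37, 9.62 and 8.96 in bleomycin controls, a 10.1-fold rise (log2 3.33, SE 0.30, limma adjusted p = 5.09e-08). The PBS mean of 6.13 lay beside the 25th percentile of gene means at 6.11, so the PBS level was not resolved from dim features and the size of the rise depends on that level. The other antagonists did not rise with it. Nbl1, a secreted BMP-binding protein also called Dan, changed by -0.35 (SE 0.11, limma adjusted p = 0.0137), or -0.31 and -0.29 without PBS control replicates 1 and 2 (limma adjusted p = 0.0668 and 0.0733). Nog was not called (-0.33, 95% interval -1.04 to 0.38), nor was Chrd (-0.23, -0.60 to 0.15), and Bambi, a pseudoreceptor, stayed between 5.40 and 5.89 on all 8 arrays.

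The BMP receptors fell in 5 of 6 members. Acvrl1, the type 1 receptor of endothelium that binds BMP9 and BMP10, measured 14.002, 13.40 and 13.75 in PBS and 12.97, 12.59, 12.70, 12.79 and 12.18 in bleomycin controls. The lowest array of each group had a dim centre. The change was -1.07 (SE 0.18, limma adjusted p = 6.77e-05) as deposited and -1.29 (SE 0.11) with the local shift removed. Bmpr2, the type 2 receptor mutated in heritable pulmonary hypertension, measured 12.38, 12.57 and 12.04 against 11.37, 11.21, 11.61, 11.30 and 11.63 (-0.91, SE 0.17, limma adjusted p = 0.000229). Eng, the endothelial coreceptor endoglin, measured 12.94, 13.05 and 12.65 against 12.06, 11.88, 11.93, 12.18 and 12.26 (-0.82, SE 0.13, limma adjusted p = 4.54e-05). The groups of all 3 genes were separate, and the endothelial markers given above fell in the same arrays. Bmpr1b (-0.46, SE 0.10) and Bmpr1a (-0.37, SE 0.07) fell less, and Acvr1 was not called (-0.07, limma adjusted p = 0.475).

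Of the receptor Smads and Smad4, 1 rose, 3 fell and 2 were not called. Smad9, a BMP receptor Smad, measured 8.03, 8.01 and 8.22 in PBS and 6.84, 6.77, 6.95, 6.74 and 7.13 in bleomycin controls (-1.20, SE 0.13, limma adjusted p = 3.55e-07). Smad1 rose by 0.38 (SE 0.09, limma adjusted p = 0.00162) and Smad5 fell by 0.31 (SE 0.07, limma adjusted p = 0.000881), although the other feature of Smad5 changed by 0.05 and the mean of both did not pass (-0.13, limma adjusted p = 0.0978). The TGF-beta receptor Smads were not called. Smad3 measured 11.52, 11.51 and 11.53 in PBS and 11.55, 11.59, 11.53, 11.56 and 11.50 in bleomycin controls, with a change of 0.03 (95% interval -0.10 to 0.15), and Smad2 changed by 0.13 (-0.15 to 0.40), or 0.08 (SE 0.09) with the local shift removed. Smad4, the partner of both branches, was called lower at -0.27 (SE 0.08, limma adjusted p = 0.0151), but its features went in opposite directions, the other one having changed by 0.36. The mean of both was 0.043, the change was -0.22 (limma adjusted p = 0.0926) without PBS control replicate 3 and -0.16 (limma adjusted p = 0.0847) with the local shift removed.

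Of the 8 feedback inhibitors, ligases and corepressors, 3 rose and 4 fell. Smad6, which inhibits BMP signalling and is itself a BMP target, measured 12.27, 12.34 and 12.10 in PBS and 11.16, 10.96, 11.25, 10.93 and 11.19 in bleomycin controls (-1.14, SE 0.13, limma adjusted p = 7.25e-07). Smad7, which inhibits TGF-beta receptors, measured 10.39, 10.51 and 10.82 against 9.76, 9.88, 10.10, 9.75 and 10.01 (-0.68, SE 0.15, limma adjusted p = 0.00108). Both inhibitory Smads had separate groups. Pmepa1, a membrane adaptor induced by TGF-beta that sequesters receptor Smads, moved the other way, from 11.16, 11.12 and 11.16 to 12.18, 12.41, 12.08, 12.27 and 12.20 (1.08, SE 0.11, limma adjusted p = 1.8e-07), and its other feature changed by 1.04. The ubiquitin ligase genes differed from each other, with Smurf1 at 0.66 (SE 0.13; 0.60 with the local shift removed, SE 0.08) and Smurf2 at -0.65 (SE 0.11, other features -0.25 and -0.30). The corepressor Tgif1 rose by 0.70 (SE 0.15) and Ski fell by 0.29 (SE 0.08). Skil, encoding the corepressor SnoN, measured 10.27, 10.11 and 10.24 in PBS and 10.71, 10.68, 10.60, 10.61 and 10.13 in bleomycin controls and was not called (0.34, limma adjusted p = 0.101). The array at 10.13 had a dim centre. With the local shift removed the change was 0.24 (SE 0.10, limma adjusted p = 0.062), and the median change over 10 features of Skil of like brightness was 0.13.

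The Id genes encode inhibitors of basic helix-loop-helix factors and are direct BMP targets. Id1 measured 12.85, 12.66 and 12.82 in PBS and 12.64, 12.59, 12.55, 12.48 and 12.02 in bleomycin controls, all below PBS. Its change was -0.32 (SE 0.14, limma adjusted p = 0.0792), which did not pass, and it passed at -0.41 (limma adjusted p = 0.0033) with the local shift removed. Id3 was called at -0.27 (SE 0.10, limma adjusted p = 0.0423), a call lost in 10 of 19 alternatives: without PBS control replicates 1 or 2 the change was -0.19 or -0.23, without bleomycin control replicates 2 to 5 it lay between -0.28 and -0.25, and with the local shift removed it was -0.22. Id2 changed by 0.64 (95% interval -0.26 to 1.55). Its feature lies near the dim centre: bleomycin control replicate 5 read 10.69 where the other 4 read 12.29 to 12.39, and PBS control replicate 2 read 10.83 where the others read 11.70 and 11.61. With the local shift removed the change was 0.27 (SE 0.17, limma adjusted p = 0.233).

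The upstream sequences of Id2, Id3 and the BMP target Smad6 are shown because these genes are direct targets of the BMP branch. Smad6 was called lower in every alternative, Id3 in some and Id2 in none; the difference between them was not tested. Each run covers the 250 bases before the annotated start in GRCm38.p6, from RefSeq, on the strand of the gene. Capitals mark GTCTG on either strand (also written CAGAC), a short site bound by Smad3 and Smad4, and GGCGCC, a palindrome bound by Smad1 and Smad5. The 2 motifs share no overlap here.
Id2 (chr12:25096093-25096342, - strand): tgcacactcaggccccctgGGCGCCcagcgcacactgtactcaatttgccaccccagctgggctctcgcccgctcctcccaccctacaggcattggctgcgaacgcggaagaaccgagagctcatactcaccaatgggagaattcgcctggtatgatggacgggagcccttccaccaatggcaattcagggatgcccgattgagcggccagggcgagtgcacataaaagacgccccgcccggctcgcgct
Id3 (chr4:136143572-136143821, + strand): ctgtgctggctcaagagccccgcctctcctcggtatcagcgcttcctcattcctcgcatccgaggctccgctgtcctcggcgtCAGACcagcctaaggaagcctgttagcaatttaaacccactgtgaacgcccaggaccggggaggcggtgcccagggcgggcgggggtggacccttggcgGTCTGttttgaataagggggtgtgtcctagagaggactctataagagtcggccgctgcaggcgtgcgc
Smad6 (chr9:64022060-64022309, - strand): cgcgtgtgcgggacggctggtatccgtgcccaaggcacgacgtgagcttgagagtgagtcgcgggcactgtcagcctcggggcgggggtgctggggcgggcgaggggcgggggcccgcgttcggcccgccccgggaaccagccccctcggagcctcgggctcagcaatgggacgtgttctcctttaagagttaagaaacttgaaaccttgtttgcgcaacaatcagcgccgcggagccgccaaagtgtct

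The window of Id2 held GGCGCC once, starting at base -231 from the start site, and that of Id3 held GTCTG or its reverse complement 2 times, at -167 and -68. The window of Smad6 held neither, which says only that these letters are not in it. GTCTG is common and GGCGCC less so. GTCTG was in 42.2% of 32851 promoter windows of this length and in 24 of the 50 windows that matched 38 member genes. GGCGCC was in 9.59% and in 13 of the 50.

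In bleomycin mice, gapmer 1 was compared with the control gapmer to ask how the pathway differed when Dnm3os was targeted (5 against 5 arrays). The activin subunit genes Inhba and Inhbb, the binding protein genes Fst and Fstl1, Grem1 and Pmepa1 were lower, and Bmp6, Bmp4 and Ltbp4 were higher. In all, 9 members were higher and 8 lower by limma, where 10.5% of all genes were called, 5.47% higher and 5.08% lower. The median change of the members was 0.05 and that of all genes 0.02. These contrasts use the same 5 bleomycin control arrays as the comparison with PBS, so a gene read high in those controls is high against PBS and low with a gapmer, and the values are given side by side with no test of their agreement. Fstl1 and Pmepa1 were lower, and Bmp5 higher, on every gapmer 1 array than on every control array, and 6.28% of all genes had groups that did not overlap, 2.87% above and 3.41% below.

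Fst measured 9.24, 8.90, 9.24, 11.01 and 9.16 with gapmer 1, against 10.67 to 11.52 in bleomycin controls, a change of -1.62 (SE 0.26, limma adjusted p = 0.00044). Inhba measured 8.87, 8.15, 8.28, 10.12 and 8.69 against 9.62 to 10.28 (-1.20, SE 0.24, limma adjusted p = 0.00263). Grem1 measured 8.49, 7.78, 7.61, 9.22 and 7.76 against 8.96 to 9.77 (-1.29, SE 0.26, limma adjusted p = 0.00302). In each of these genes 4 gapmer 1 arrays lay below every control array and replicate 4 lay within the range of the controls. Without replicate 4 the changes were -1.997 for Fst, -1.52 for Inhba and -1.55 for Grem1. Dnm3os on that array measured 6.48, the highest of its group. With gapmer 3, replicate 5 in bleomycin mice read 6.78 for Dnm3os, within the control range of 6.64 to 7.05. That array read 9.58 for Fst, 8.71 for Inhba and 8.42 for Grem1, each below every control. Dnm3os was dim, and a link between its level and these genes was not tested. Fstl1 measured 13.65, 13.27, 13.47, 13.98 and 13.73 against 14.02 to 14.37 (-0.58, SE 0.10, limma adjusted p = 0.000889), and Pmepa1 11.93, 11.70, 11.62, 12.03 and 11.52 against 12.08 to 12.41 (-0.47, SE 0.09, limma adjusted p = 0.00275). Inhbb was lower by -0.34 (SE 0.09, limma adjusted p = 0.0184), Ltbp1 by -0.36 (SE 0.09, limma adjusted p = 0.00822) and Smad1 by -0.27 (SE 0.08, limma adjusted p = 0.0237). The falls of Fst, Fstl1, Grem1, Inhba, Ltbp1 and Pmepa1 passed in every alternative that was run, and those of Inhbb and Smad1 did not.

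Bmp6 measured 10.72, 10.94, 11.13, 10.07 and 10.46 with gapmer 1 against 9.77 to 10.50 in bleomycin controls (0.59, SE 0.15, limma adjusted p = 0.0163). Ltbp4 measured 14.70, 14.95, 14.92, 14.38 and 14.41 against 14.07 to 14.55 (0.40, SE 0.10, limma adjusted p = 0.0144). Bmp4 measured 13.58, 13.48, 13.40, 13.39 and 13.05 against 12.73 to 13.28 (0.38, SE 0.10, limma adjusted p = 0.0157). All 3 overlapped with the controls, as did the other members called higher: Smurf2, Acvr2b and Bmp3 at 0.35, Nbl1 at 0.34, Ski at 0.25 and Acvr2a at 0.23. With the mean of a gene's features Smurf2 differed by 0.10 (limma adjusted p = 0.598), Acvr2a by 0.14 (limma adjusted p = 0.126) and Bmp4 by 0.15 (limma adjusted p = 0.163). The 3 features of Smurf2 went different ways (0.35, -0.11 and 0.07), and the other feature of Bmp4, which was dim, differed by -0.08. None of these 9 calls passed without bleomycin control replicate 2, or in a fit of only the groups compared. Of the 9, 2 passed without gapmer 1 replicate 2, 2 without gapmer 1 replicate 3, 3 without bleomycin control replicate 3 and 4 without gapmer 1 replicate 1. Of the endothelial markers 2 of 12 were higher and none lower in this contrast, with their mean level at 11.34 to 11.69. Of the myofibroblast and smooth muscle markers 4 of 9 were lower (11.25 to 11.57). Alveolar type 1 markers were higher in 6 of 8, T cell markers lower in 5 of 7, monocyte-derived macrophage markers lower in 4 of 8 and markers of basal and squamous epithelium lower in 3 of 8. Mean levels of B cell markers were 10.68 to 11.00 with gapmer 1 against 11.35 to 11.69 in bleomycin controls. Those of skeletal muscle were 10.28 to 10.92 against 9.46 to 9.62, and those of adipose tissue 11.11 to 12.15 against 10.61 to 11.22. Their part in the member changes was not tested.

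**Figure D3:**
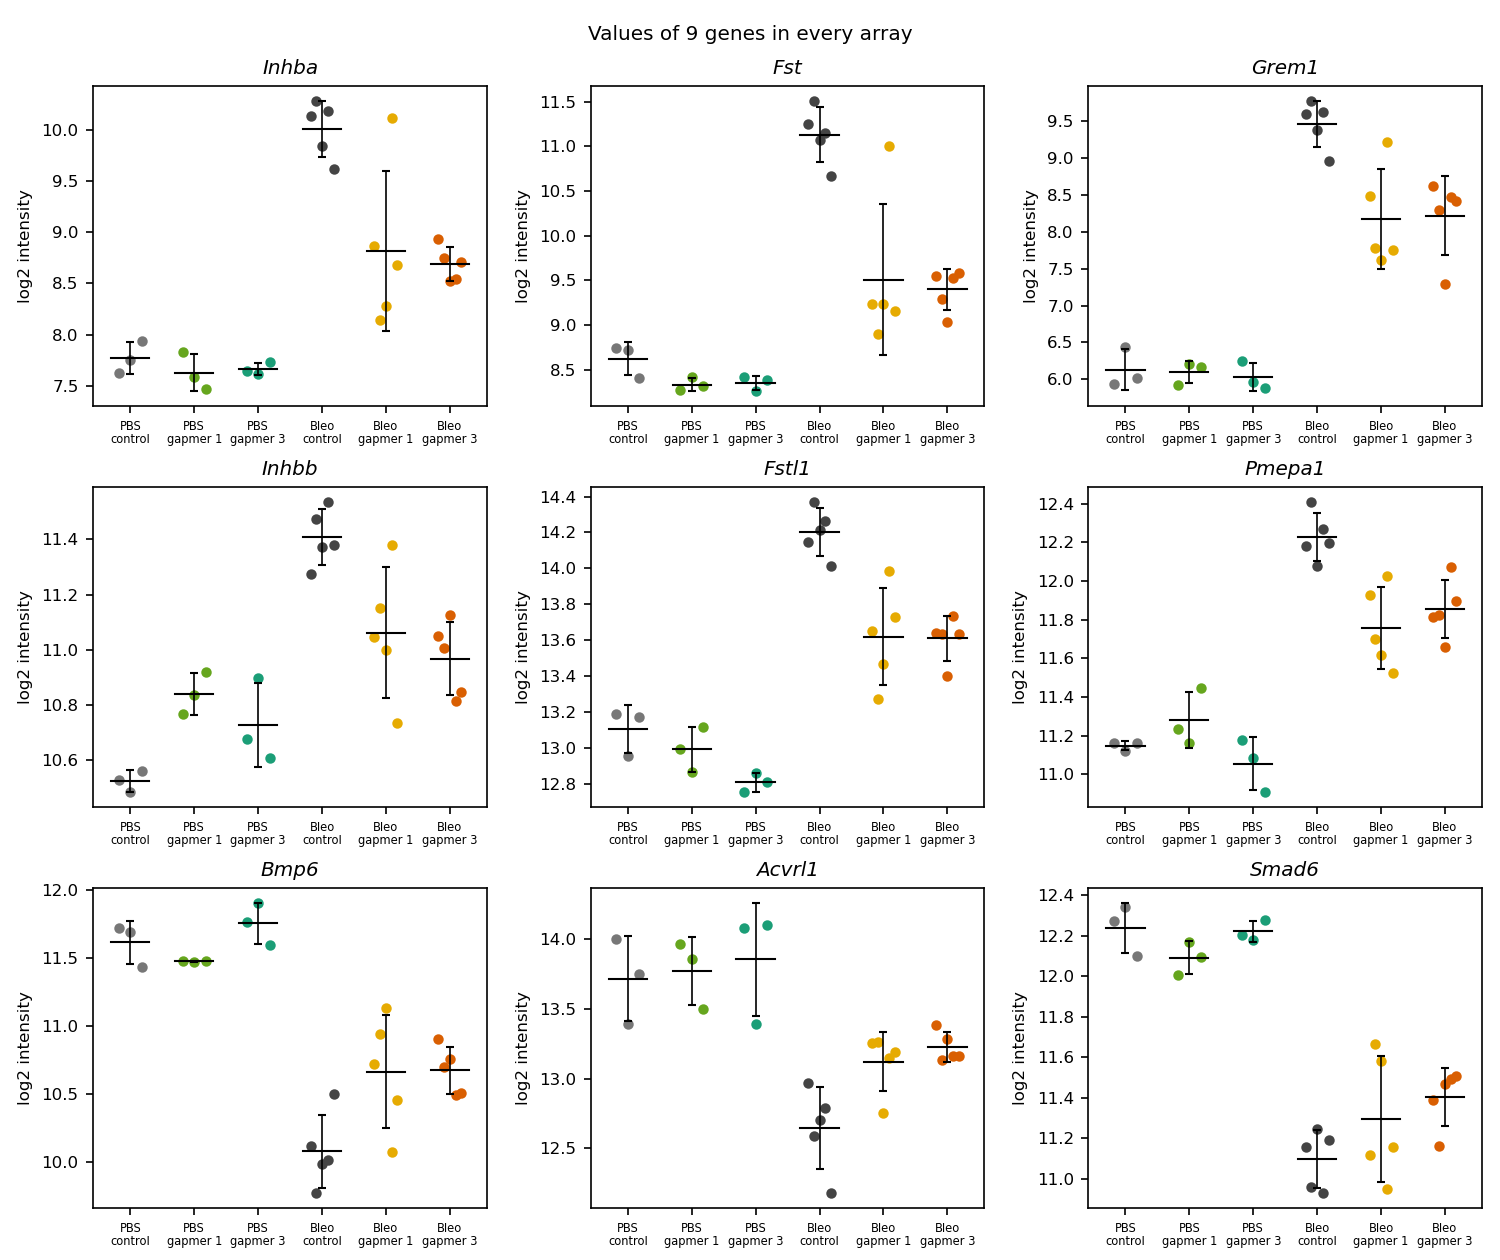
Log2 intensity (y axis) of 9 genes in every array of the 6 groups (x axis). Points are arrays, horizontal lines are group means and bars are SD. In Inhba, Fst and Grem1 a single gapmer 1 array of bleomycin mice (10.12, 11.01 and 9.22) lies with the bleomycin controls, while the gapmer 3 arrays lie below them all.

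In bleomycin mice, gapmer 3 was compared with the same 5 control arrays. Again Inhba, Inhbb, Fst, Fstl1, Grem1 and Pmepa1 were lower and Bmp6 was higher, and Acvrl1 and Smad7 were called here. There were 11 members higher and 9 lower by limma, where 13.2% of all genes were called, 5.63% higher and 7.52% lower. The median change of the members was 0.03 and that of all genes 0.01. All gapmer 3 arrays were lower than all control arrays for Ltbp1, Inhba, Inhbb, Fst, Fstl1, Grem1 and Pmepa1, and higher for Ltbp4, Acvrl1, Smad2 and Smurf2, where 12.9% of all genes had groups that did not overlap, 4.83% above and 8.03% below. Smad2 was not called (9.39 to 9.53 against 8.88 to 9.35). Its lowest control value came from bleomycin control replicate 5, which had a dim centre.

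Fst measured 9.55, 9.29, 9.04, 9.53 and 9.58 with gapmer 3, a change of -1.73 (SE 0.26, limma adjusted p = 0.00013), and Inhba measured 8.94, 8.75, 8.53, 8.54 and 8.71 (-1.32, SE 0.24, limma adjusted p = 0.000768). Grem1 measured 8.62, 8.29, 7.29, 8.47 and 8.42 (-1.24, SE 0.26, limma adjusted p = 0.00277). No array of this group reached the control range in these 3 genes, in contrast to gapmer 1, although the means of the gapmer groups were close. Fstl1 measured 13.64, 13.63, 13.40, 13.73 and 13.64 (-0.59, SE 0.10, limma adjusted p = 0.000477). Inhbb was lower by -0.44 (SE 0.09, limma adjusted p = 0.0027), Pmepa1 by -0.37 (SE 0.09, limma adjusted p = 0.0105) and Ltbp1 by -0.30 (SE 0.09, limma adjusted p = 0.0236). The fall of Ltbp1 was -0.25 (limma adjusted p = 0.0867) without bleomycin control replicate 2 and -0.29 (limma adjusted p = 0.0569) without gapmer 3 replicate 3. Bmp7 measured 8.05, 7.85, 7.97, 7.96 and 7.86 against 8.84, 8.66, 8.38, 8.65 and 7.92 (-0.55, SE 0.17, limma adjusted p = 0.0315), or -0.71 (SE 0.09, limma adjusted p = 1.32e-05) with the local shift removed. As deposited the call was lost without bleomycin control replicates 1, 2 or 4 and without gapmer 3 replicates 2, 3, 4 or 5, with the change between -0.56 and -0.47. Gdf10 (-0.31) lost its call in 13 of 21 alternatives, among them those without bleomycin control replicates 1, 2, 4 or 5 and without gapmer 3 replicates 2, 3, 4 or 5 (-0.31 to -0.26).

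On the BMP side, Bmp6 measured 10.91, 10.70, 10.76, 10.50 and 10.51 with gapmer 3 against 10.12, 9.77, 9.99, 10.01 and 10.50 in controls (0.59, SE 0.15, limma adjusted p = 0.012). Acvrl1 measured 13.39, 13.13, 13.28, 13.16 and 13.17, all above the controls, whose highest array was 12.97. Its change was 0.58 (SE 0.15, limma adjusted p = 0.0147) as deposited and 0.42 (SE 0.09, limma adjusted p = 0.00352) with the local shift removed. Removal of the shift also brought the gapmer 1 difference of Acvrl1 past the threshold, from 0.48 (limma adjusted p = 0.0515) to 0.48 with a smaller error (SE 0.09, limma adjusted p = 0.00143). Smad7 measured 10.08, 10.16, 10.50, 10.58 and 10.56 against 9.75 to 10.10 (0.48, SE 0.13, limma adjusted p = 0.0158). In each PBS group Smad7 rose with the sample number. It measured 10.39, 10.51 and 10.82 in controls, 9.94, 10.28 and 10.54 with gapmer 1, and 10.09, 10.37 and 10.62 with gapmer 3. The gapmer 3 arrays at 10.50, 10.58 and 10.56 stood late in the sample list. So did control replicate 3 (10.10) and gapmer 1 replicate 5 (10.12). No alternative covered the order of that list, and its part in the rise was not tested. The rises of Bmp6, Acvrl1 and Smad7 passed in every alternative. Smad9 (0.39), Bmp4 (0.38), Bmp3 and Smurf2 (0.35), Ltbp4 (0.34), Acvr2a (0.27), Ski (0.24) and Id1 (0.37) did not: without bleomycin control replicate 2 only 3 of the 11 were called. With the mean of features Bmp4 differed by 0.12 (limma adjusted p = 0.288; its dim other feature by -0.15), Acvr2a by 0.15 (limma adjusted p = 0.0824) and Smurf2 by 0.25 (limma adjusted p = 0.091). Id1 measured 12.81, 12.44, 13.03, 12.91 and 12.95 against 12.02 to 12.64, and its change was 0.26 (limma adjusted p = 0.113) without bleomycin control replicate 5, the lowest array. That array had a dim centre, and the call of Id1 passed with the local shift removed. Of the endothelial markers 5 of 12 were higher (mean level 11.61 to 11.75, above all 5 controls) and of the myofibroblast and smooth muscle markers 5 of 9 were lower (11.23 to 11.38). Alveolar type 1 markers were higher in 6 of 8, T cell markers lower in 5 of 7 and markers of basal and squamous epithelium lower in 4 of 8, and of the monocyte-derived macrophage markers 3 of 8 were lower and 1 higher. Mean levels of B cell markers were 10.23 to 10.99 with gapmer 3 against 11.35 to 11.69 in bleomycin controls. Those of skeletal muscle spread from 7.60 to 12.39 against 9.46 to 9.62, and those of adipose tissue from 10.55 to 12.36 against 10.61 to 11.22. Their part was not tested. Smurf1 and Tgif1 were called lower with both gapmers only after the local shift was removed, at -0.32 and -0.31 with gapmer 1 and -0.32 and -0.30 with gapmer 3.

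Members that did not pass in either gapmer comparison include the TGF-beta ligands and receptors. Tgfb1 measured 10.56, 10.51, 10.41, 10.51 and 9.96 with gapmer 1 (-0.19, 95% interval -0.44 to 0.06) and 10.46, 10.30, 10.07, 10.19 and 10.23 with gapmer 3 (-0.33, -0.58 to -0.08, limma adjusted p = 0.0782). Tgfb2 differed by 0.01 in both comparisons. The chosen feature of Tgfb3 differed by -0.11 and -0.10 with gapmer 1 and gapmer 3, or by -0.13 and -0.19 with the local shift removed, and the medians over its 10 features were -0.12 and -0.24. Tgfbr1 differed by -0.04 and 0.06 and Tgfbr2 by -0.07 and -0.15, Bmpr2 by 0.16 and 0.24, Eng by 0.12 and 0.07 and Smad3 by -0.01 and -0.08, in the order gapmer 1 and gapmer 3. The other feature of Tgfbr2, a dimmer one with a mean of 8.88, differed by -0.29 and -0.30. Bmpr2 read 11.41, 12.05, 11.96, 11.34 and 11.16 with gapmer 1, so that 2 arrays lay above all controls and 1 below them.

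In PBS mice neither gapmer changed a member by limma. With gapmer 1, 11 members had an unadjusted p under 0.05 (4 higher, 7 lower), where 17% of all genes did and 1.11% were called, 0.444% higher and 0.666% lower. The smallest p among members that were lower belonged to Ltbp1 (10.06, 10.34 and 10.23 against 10.35, 10.73 and 10.63; -0.36, limma adjusted p = 0.0952), Smad5 (-0.23) and Tgfbr3 (-0.34). Among members that were higher it belonged to Bambi (0.49), Smad3 (0.18) and Inhbb (0.31). The value of Bambi rested on PBS gapmer 1 replicate 2, which read 6.66 where the others read 5.68 and 5.61. With gapmer 3, 5 members had an unadjusted p under 0.05 (2 higher, 3 lower), where 9.76% of all genes did and 0.0338% were called, 0.00965% higher and 0.0241% lower. These were Gdf10 (-0.41, limma adjusted p = 0.337), Smad5 (-0.19), Fstl1 (-0.30), Smurf1 (0.41, or 0.26 with the local shift removed) and Tgfb2 (0.39), and Inhbb followed at 0.20. Fst, Inhba and Grem1 stayed low in all PBS groups: Fst at 8.26 to 8.42 with gapmer 1 and gapmer 3 together, Inhba at 7.47 to 7.83 and Grem1 at 5.88 to 6.25.

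Whether the bleomycin response itself differed with a gapmer was asked by the difference between responses, which uses all 4 groups of a gapmer and its control. With gapmer 1 the response differed in 6 members, 4 higher and 2 lower by limma, where 7.7% of all genes were called (4.97% higher, 2.74% lower). Inhbb rose with bleomycin by 0.88 under the control gapmer and by 0.22 under gapmer 1, a difference of -0.66 (SE 0.15, limma adjusted p = 0.0131). It measured 10.77, 10.84 and 10.92 in PBS and 11.05, 11.15, 11.00, 11.38 and 10.73 in bleomycin mice with gapmer 1, so part of the difference lay in higher PBS values. Pmepa1 rose by 1.08 and 0.48 (difference -0.60, SE 0.15, limma adjusted p = 0.0227), or with a difference of -0.52 (limma adjusted p = 0.0613) without PBS gapmer 1 replicate 3. Its PBS values were 11.23, 11.16 and 11.45 with gapmer 1 and 11.16, 11.12 and 11.16 in controls, so here too part lay in higher PBS values. Smad9 fell by 1.20 and 0.54 (difference 0.66, SE 0.18, limma adjusted p = 0.0297), Tgfbr3 by 1.01 and 0.49 (0.51, SE 0.15, limma adjusted p = 0.0402) and Acvr2a by 0.48 and 0.08 (0.40, SE 0.12, limma adjusted p = 0.0435; 0.17 with the mean of its features, limma adjusted p = 0.265). Smad9 measured 7.56, 7.83 and 7.86 in PBS and 7.18, 7.19, 7.36, 6.82 and 7.49 in bleomycin mice with gapmer 1. Tgfbr3 measured 11.41, 11.49 and 11.54 against 10.73, 11.07, 11.28, 10.77 and 11.10. For both genes the PBS values with gapmer 1 lay below those of PBS controls (8.01 to 8.22 for Smad9, 11.78 to 11.90 for Tgfbr3). The same held for Acvr2a, at 8.54 to 8.63 against 8.67 to 8.80. Part of these differences therefore lay in lower PBS values. In bleomycin mice neither Smad9 nor Tgfbr3 was called with gapmer 1. Ski changed by -0.29 and 0.10 (0.39, SE 0.11, limma adjusted p = 0.0364). In PBS mice Ski measured 7.55, 7.42 and 7.70 with gapmer 1 and 7.73, 7.61 and 7.74 in controls, lower on average with overlap. The calls of Smad9, Tgfbr3, Acvr2a and Ski were each lost without several single arrays: none of the 4 was called without PBS control replicates 1 or 3, PBS gapmer 1 replicate 1, bleomycin control replicate 2 or gapmer 1 bleomycin replicate 3. Inhbb passed in all 27 alternatives.

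With gapmer 3 the response of 1 member differed, where 3.09% of all genes were called (1.45% higher, 1.64% lower). Inhbb measured 10.68, 10.90 and 10.61 in PBS and 11.05, 11.01, 11.13, 10.81 and 10.85 in bleomycin mice, a rise of 0.24 against 0.88 (difference -0.64, SE 0.15, limma adjusted p = 0.0239). Its PBS values with gapmer 3 all lay above those of PBS controls (10.48 to 10.56), so part of the difference lay there. The difference was -0.64 (limma adjusted p = 0.0579) without PBS control replicate 1 and -0.56 (limma adjusted p = 0.0695) without PBS gapmer 3 replicate 2. Fst, Grem1 and Inhba had large differences that did not pass. For Fst they were -1.33 (SE 0.43, limma adjusted p = 0.0577) with gapmer 1 and -1.46 (SE 0.43, limma adjusted p = 0.0619) with gapmer 3. For Grem1 they were -1.26 and -1.14 (limma adjusted p = 0.0737 and 0.145) and for Inhba -1.05 and -1.21 (limma adjusted p = 0.103 and 0.0907). With the local shift removed 6 members were lower with gapmer 1 and 4 with gapmer 3, among them Fst at -1.37 and -1.49 (limma adjusted p = 0.0397 and 0.0372). Both comparisons share the control arrays, PBS and bleomycin alike.

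**Figure D4:**
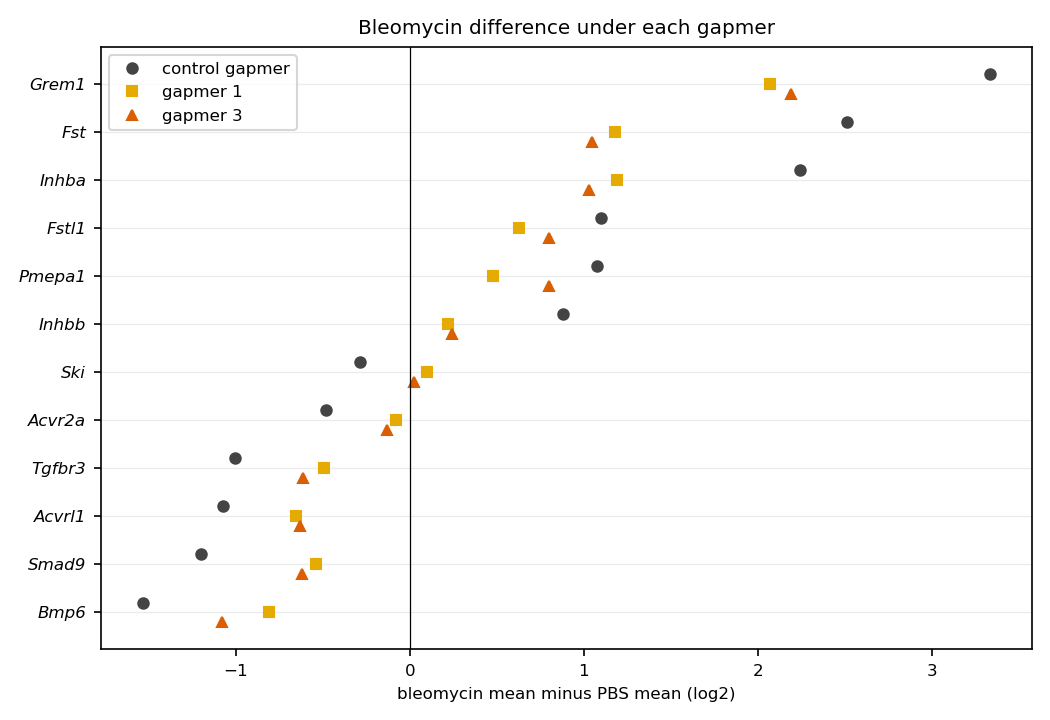
Bleomycin mean minus PBS mean (x axis, log2) of 12 genes (y axis) under the control gapmer, gapmer 1 and gapmer 3, with no error shown. Grem1 rose by 3.33, 2.07 and 2.19 and Inhbb by 0.88, 0.22 and 0.24, while Bmp6 fell by 1.53, 0.81 and 1.08.

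The 2 gapmers were set against each other in bleomycin mice, a comparison that does not use the control arrays. No member and no other gene was called by limma, and 4 members had an unadjusted p under 0.05, where 4.04% of all genes did. Smad7 was 0.34 higher with gapmer 3 (95% interval 0.07 to 0.60), Id1 0.30 higher (0.05 to 0.55), Bmp2 0.25 lower (-0.47 to -0.04 as gapmer 3 minus gapmer 1) and Nbl1 0.20 lower (-0.39 to -0.00). Each had a limma adjusted p of 0.992, and the part of the order of the sample list in the Smad7 difference was not tested. For Fst, Inhba and Grem1 the gapmer 3 mean differed from the gapmer 1 mean by -0.11, -0.13 and 0.05. A missed threshold does not show that the gapmers act alike, and the 95% intervals ran from -0.65 to 0.43 for Fst, from -0.62 to 0.37 for Inhba and from -0.50 to 0.59 for Grem1.

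A list of 95 other measured genes of the pathways was read beside the members. With bleomycin 22 rose and 24 fell, a share to be read beside the 33.8% of all genes. Of 12 genes for the binding and activation of TGF-beta, which include matrix proteins, integrin subunits and membrane anchors, 9 rose and 1 fell, with Ltbp2, a latent TGF-beta binding protein family member, at 1.55 (SE 0.19) and Fbn1, fibrillin-1, at 1.46 (SE 0.17). The stress ligand Gdf15 rose by 1.71 (SE 0.16) and the TGF-beta induced matrix gene Tgfbi by 1.42 (SE 0.16). The receptor Acvr1c fell by 1.41 (SE 0.26) and Hamp, which encodes hepcidin and is a target of BMP6 in liver, by 1.31 (SE 0.19). In bleomycin mice, 3 of the 95 were higher and 8 lower with gapmer 1, where 10.5% of all genes were called, and 7 were higher and 10 lower with gapmer 3, where 13.2% were. The collagen-associated gene Cthrc1 was lower by -0.78 (SE 0.17) and -0.87 (SE 0.17), the BMP modulator Bmper by -0.55 (SE 0.10) and -0.65 (SE 0.10), the matricellular TGF-beta target Ccn2 by -0.62 (SE 0.15) and -0.55 (SE 0.15) and Tgfbi by -0.48 (SE 0.13) and -0.58 (SE 0.13), in the order gapmer 1 and gapmer 3. With gapmer 1 the proteoglycan gene Bgn was also lower (-0.51) and the receptor gene Amhr2 higher (0.57). With gapmer 3 Thbs1, an activator of latent TGF-beta, was lower (-0.59) and the Notch and BMP9 target Hey1 higher (0.55). In PBS mice 1 of the 95 was called lower with gapmer 1, Hey1 at -0.86 (limma adjusted p = 0.0356), and none with gapmer 3. The bleomycin response differed for 7 of the 95 with gapmer 1 (3 higher, 4 lower) and for 3 with gapmer 3 (2 higher, 1 lower), where 7.7% and 3.09% of all genes were called. The response of Acvr1c differed by 1.48 with both gapmers and that of Hey1 by 1.25 and 1.15. Adipose markers had a median level of 12.69, 11.54 and 11.26 in PBS mice with control, gapmer 1 and gapmer 3. In bleomycin mice it was 10.94, 11.84 and 11.96 in the same order. The part of adipose tissue in the Acvr1c difference was not tested. With gapmer 1 the response was lower for Tgfbi (-0.80), Bgn (-0.67), Wwp2 and Tab1 (-0.42 each), and with gapmer 3 for Bmper (-0.67).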

How the data were processed

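The deposited table holds log2 intensities that the authors had quantile-normalised between arrays, as the values show (array medians 6.485 to 6.495). The submitters' processing notes name limma without a version. For background correction and filters: not given in the sources used here. Of 62976 features 31465 carried a gene symbol, brought to current names with RefSeq's GRCm38.p6 table. Of a gene's features the one with the highest mean was used, and 19 members had several.

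All 24 arrays were fitted with 6 group means in limma 3.58.1 (R 4.3.3; lmFit, eBayes, two-sided; 18 residual degrees of freedom). P-values were adjusted by Benjamini-Hochberg over 20728 genes in each of 8 contrasts and called under 0.05. The fit was tested on simulated data. Tables were made with Python 3.11.15, pandas 2.3.3 and NumPy 2.4.6, and figures with matplotlib 3.10.9.

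Members and gene lists were chosen with earlier results of these data known. For bleomycin against PBS, arrays are given, singly or as a range, for the 14 members with the largest called changes and a fixed set of 20. For each gapmer in bleomycin mice they are given for the 8 largest called changes. In the PBS contrasts, where none was called, the 3 smallest p in each direction are named. There, in the response differences and for the fixed set with the gapmers, arrays are printed for some members only. Alternatives are in the closing section; leaving out arrays of low weight and removing the local shift were chosen after seeing the data.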

Additional observations from a re-analysis of the deposited data

Results flagged for a closer look

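In groups of 5 arrays, 11 of 159 gene and group combinations had an array whose gap to the next, as a share of the range, exceeded Dixon's critical value of 0.71. Chance gives about 1 in 20. Bleomycin control replicate 5 stood apart for 4 genes: Id2 read 10.69 (others 12.29 to 12.39), Skil 10.13 (10.60 to 10.71), Id1 12.02 (12.48 to 12.64) and Bmpr1a 10.67 (10.50 to 10.54). Gapmer 1 replicate 3 in bleomycin mice read 12.75 for Acvrl1 (13.15 to 13.26). The centre of both arrays was dim, with a lowest local shift of -1.41 and -1.16, and the features of Id2, Acvrl1 and Skil lie in or near it. That of Id1 lies at line 170 and column 61, where the lowest local shift of any array was -0.19.

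In gapmer 1 bleomycin mice, replicate 4 read 11.01 for Fst (others 8.90 to 9.24), and replicate 5 read 9.96 for Tgfb1 (10.41 to 10.56) and 11.57 for Tgfb2 (12.19 to 12.29). In gapmer 3 bleomycin mice, replicate 3 read 11.75 for Tgfb2 (12.15 to 12.25), 13.15 for Bmp4 (13.40 to 13.45) and 7.29 for Grem1 (8.29 to 8.62).

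The bleomycin response differed between gapmer and control, by limma's test of the difference, in 7 cases. With gapmer 1 these were Inhbb (-0.66), Pmepa1 (-0.60), Acvr2a (0.40), Ski (0.39), Tgfbr3 (0.51) and Smad9 (0.66), and with gapmer 3 Inhbb (-0.64).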

How the results depend on the processing

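Calls that passed in every alternative were 29 of 38 for bleomycin against PBS, 6 of 17 and 9 of 20 for gapmers 1 and 3 in bleomycin mice, and 1 of 6 and 0 of 1 for the response differences. The direction of a called member turned once: Smad4 with bleomycin, at 0.043 with the mean of its features. For gapmer 1 in bleomycin mice, 0 members were higher in a fit of only the groups compared and 15 with array weights; for gapmer 3, 18 were higher with array weights. For gapmer 1 in PBS mice 1 member was lower with the local shift removed. The gapmer 1 response difference had, as higher and lower, 12 and 9 members with array weights, 8 and 4 with the RNA integrity number as covariate and 7 and 7 without the 3 arrays of weight under 0.5; 2 were higher with the 75th percentile aligned, 7 without dim genes and 1 in only the groups compared, and 6 were lower with the local shift removed. The gapmer 3 response difference had, as higher and lower, 1 and 3 in only the groups compared, 4 and 4 with array weights and 1 and 4 with the local shift removed; 2 were lower without dim genes or with the mean of features, and 3 without the low-weight arrays. Leaving out each array in turn gave, as higher and lower, 13 to 18 and 19 to 21 for bleomycin, 0 to 12 and 6 to 10 for gapmer 1, 3 to 13 and 6 to 10 for gapmer 3, 0 to 11 and 2 to 6 for the gapmer 1 response, 0 to 2 and 0 to 3 for the gapmer 3 response, and 0 to 0 elsewhere. Except where stated above, the cause was not tested. Whether sample numbers pair the arrays was not settled. Deviations from the group means of same-numbered arrays correlated with r between -0.41 and 0.42 (median 0.07), and those of other arrays between -0.47 and 0.72 (median -0.03). With the replicate block 1 member was lower with gapmer 1 in PBS mice, 7 were higher and 4 lower in the gapmer 1 response, and 2 higher and 3 lower in the gapmer 3 response; no other count moved by over 1.5 times. Dim features limit Grem1 in PBS mice and Bambi.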
